A study of Mus musculus with 8 samples.

Results

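The 36 genes described here drive or restrain cell division: cyclins and the kinase Cdk1, the helicase and clamp that copy DNA, enzymes that supply nucleotides, the machinery of mitosis, and 3 inhibitors of cyclin-dependent kinases. They were taken by name from a table of 57010 genes, and all 36 were found in it. RNA came from the retina of C57BL/6J mice aged 17 days in the model of oxygen-induced retinopathy (OIR), where high oxygen first closes retinal capillaries and room air then brings on abnormal vessel growth. The 4 control libraries are of retinas that received a control scAAV (a self-complementary adeno-associated viral vector), and the 4 knockdown libraries of retinas that received an scAAV against the long noncoding RNA MM2P. All 8 libraries thus share the strain, the age, the OIR model and exposure to a viral vector. The treatment label of the knockdown group reads as a knockout, while the series calls it a knockdown. Neither the route, the promoter of the vector nor the cells it enters is given in the labels, and replicates are not said to be separate animals, so p-values measure only the spread between these samples.

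A dividing cell passes through G1, copies its DNA in S phase, and separates the copies in mitosis. D-type cyclins with Cdk4 or Cdk6 release E2F transcription factors from the retinoblastoma protein, E2F turns on replication genes, and mitotic genes follow under a different promoter element, the cell cycle genes homology region (CHR). Retinal neurons have left the cycle by this age, whereas endothelial cells, pericytes, microglia and astrocytes can still divide in OIR. In bulk tissue, fewer cells of a type and less RNA per cell cannot be told apart.

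The target of the knockdown, listed as Mm2pr, was near its detection limit, with 0 to 20.6 estimated counts in the knockdown libraries and 1 to 16.95 in the controls, so it does not check the labels. Library totals ran from 16.03 to 21.4 M estimated counts (M, 1000000). The tissue label held for its main cell type, since rod photoreceptor markers summed to 36746 to 38358 transcripts per 1000000 (TPM, a level corrected for gene length and library size) in the controls and 34318 to 36878 TPM in the knockdown. Lens markers summed to 12.9 to 17.01 TPM in the controls and to 133, 54.2, 545 and 133 TPM in knockdown libraries 1 to 4, and 7 of 15 tested lens genes rose in edgeR. No gene of any kind was called higher, these 7 included, without control 1, 2 or 4, with a robust dispersion, among genes averaging at least 5 TPM, or in limma. A lens gene as low in the controls as Crygb could reach the filter for testing, 1 TPM in at least 4 libraries, only through the knockdown libraries. The 15 tested lens genes were thus partly selected for being higher there. The part of lens RNA in the results below was not tested.

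No cell cycle gene passed the test of a difference between the groups after correction over all genes. Of the 36 genes, 35 reached the expression filter of 1 TPM in at least 4 libraries, and 0 of these 35 passed the edgeR quasi-likelihood test at an adjusted p under 0.05, where 0.062% of all 16118 tested genes did (0.0434% higher and 0.0186% lower in the knockdown). The smallest adjusted p among them was 0.822, for Bub1. At an unadjusted p under 0.05 there were 2 of 35, Bub1 and Mki67, against 5.27% of all tested genes. DESeq2 and limma on log2(TPM + 1) likewise called 0 of the 35, with 2 and 1 at an unadjusted p under 0.05. Fold changes were positive for 23 and negative for 12, and their median was 0.04 on the log2 scale, beside 0.00 over all tested genes and 51.8% positive. None of the 35 separated the 4 control from the 4 knockdown libraries in scaled counts, where 3.31% of all tested genes did.

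The estimates were precise enough to bound most of these genes. Approximate 95% intervals of the fold change lay within 2-fold in either direction for 33 of the 35, against 92.5% of all tested genes, and within 1.5-fold for 25. The 2 exceptions were Aurkb, with an interval of -1.04 to 0.67 on the log2 scale, and Bub1, with 0.17 to 1.50. The median SE was 0.162 on the log2 scale, compared with 0.0942 over all tested genes.

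**Figure D1:**
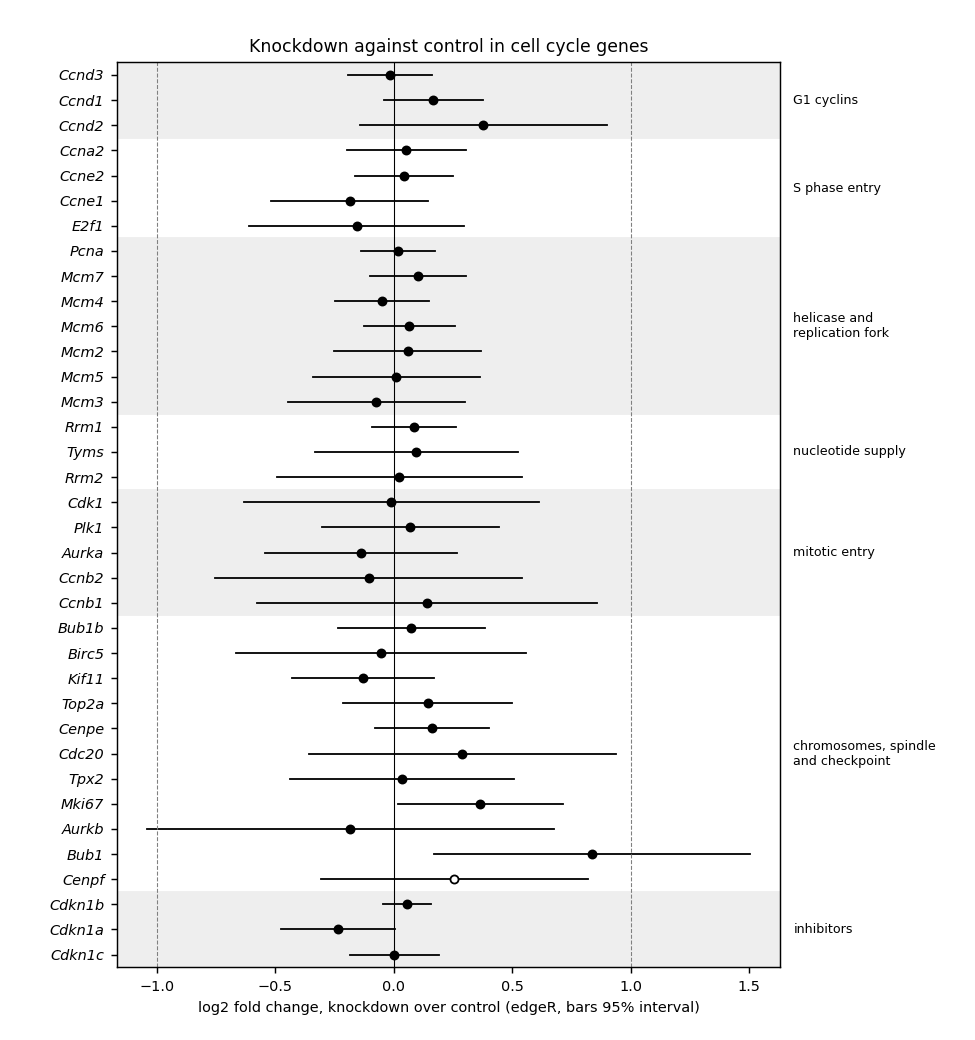
Estimated log2 fold change of each gene, knockdown over control, with bars for the approximate 95% interval, n = 4 libraries a group, grouped by role. Dashed lines mark 2-fold, and the open point is Cenpf, from the fit with no expression filter. Most points lie near 0, and Bub1, at 0.83, lies farthest from it.

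Levels differed widely between roles. The inhibitor Cdkn1b was the most abundant at 203 TPM over the 8 libraries, above 95.5% of tested genes. Pcna (116 TPM) and Ccnd3 (52.9 TPM) were the only others above 50 TPM. A further 10 lay between 10 and 50 TPM, 3 between 5 and 10, and 20 below 5. Of the 16 genes of mitotic entry and mitosis proper, Bub1b alone exceeded 5 TPM. The lowest was Cenpf, the gene of a kinetochore protein, at 0.241 to 0.474 TPM in the controls and 0.291 to 0.679 TPM in the knockdown. It missed the filter and, in the edgeR fit with no filter, had a log2 fold change of 0.25 (SE 0.281, adjusted p = 0.860).

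**Figure D2:**
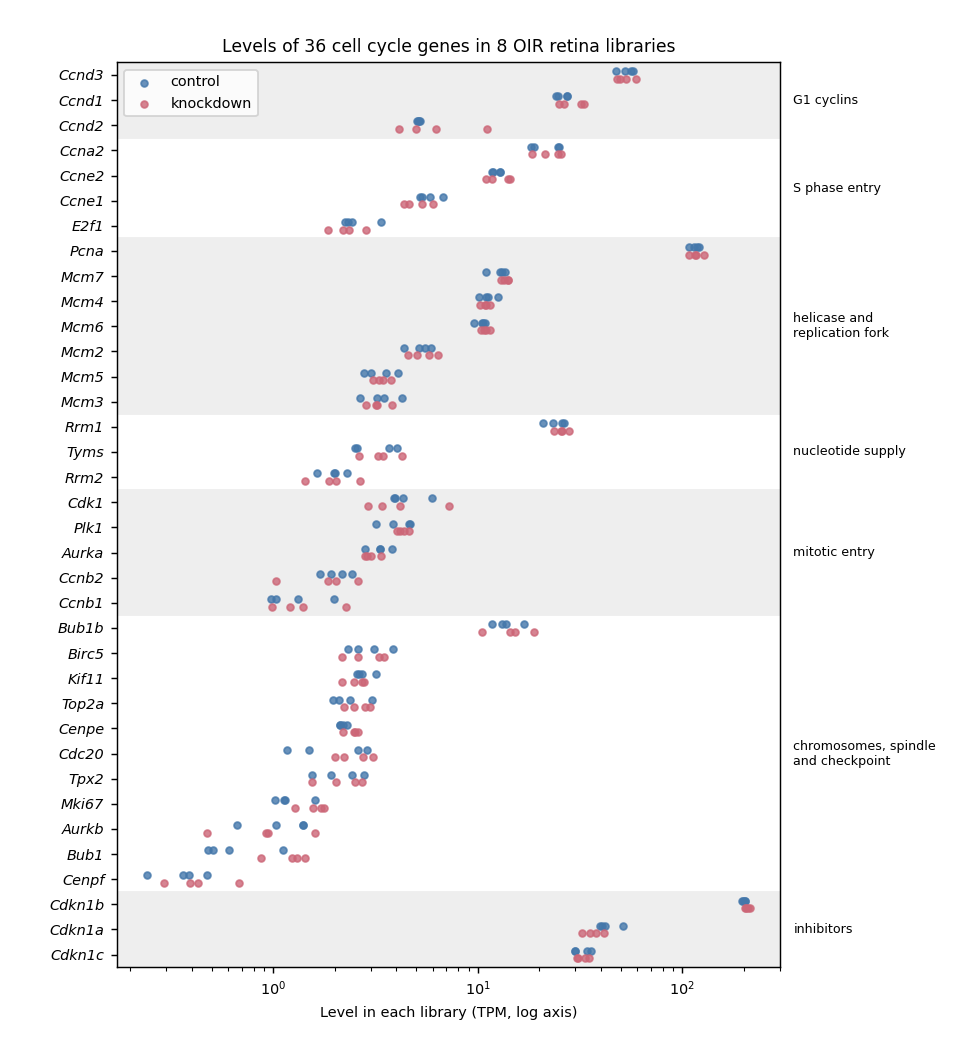
Level of each gene in TPM on a log axis, 1 point a library, controls in blue and knockdown libraries in red, grouped by role. Cdkn1b and Pcna stand at the top, the mitotic genes mostly below 5 TPM, and the colours overlap for every gene except Cdkn1b.

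D-type cyclins carry growth signals into G1, and the 3 genes differed in abundance. Ccnd3 had 56.2, 57.1, 52.4 and 47.6 TPM in controls 1 to 4 and 59.6, 52.99, 49.7 and 48.1 TPM in knockdown libraries 1 to 4, with knockdown 1 above every control and the other 3 among them (log2 fold change -0.02, 95% interval -0.20 to 0.16, edgeR adjusted p = 0.998). Ccnd1, a cyclin of retinal progenitors and Müller glia, had 27.4, 24.1, 27.3 and 24.7 TPM in the controls and 33.1, 26.5, 31.97 and 25.03 TPM in the knockdown. Knockdown 1 and 3 were above all controls, and knockdown 2 and 4 were among them (0.17, -0.04 to 0.37, edgeR adjusted p = 0.961). Ccnd1 shares 1100 of its 4709 exonic bases with LTO1 on the opposite strand, a gene at 59.2 TPM, and no source says that counting used strand. Ccnd2 had 5.21, 5.17, 5.01 and 5.10 TPM in the controls, a coefficient of variation of 1.72%, and 11.1, 4.99, 6.22 and 4.13 TPM in the knockdown.

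Knockdown 1 thus held the highest Ccnd2 level by a wide margin, while knockdown 2 and 4 lay below every control. The log2 fold change of Ccnd2 was 0.38 (-0.15 to 0.90, edgeR adjusted p = 0.972), and it was -0.04 without knockdown 1. The same library had 121 TPM of the astrocyte and reactive glia gene Gfap, against 30.6 to 61.9 TPM in the other 7. Its 6 astrocyte markers summed to 196 TPM, most of it from Gfap itself, against 104 to 127 TPM in the controls. Its 15 microglia and macrophage markers summed to 241 TPM, against 187 to 216 TPM in the controls. The microglia and macrophage sums of knockdown 2, 3 and 4 were 183, 182 and 170 TPM, below every control. Their astrocyte sums were 107 to 113 TPM, within the control range. No marker of either list was at 0 in all libraries. Their part in the Ccnd2 level was not tested.

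E-type cyclins and cyclin A2 take cells into S phase, and E2f1 switches on their genes. Ccna2 was the most abundant of the 4, with 24.9, 24.7, 18.3 and 18.8 TPM in the controls and 21.2, 18.4, 24.8 and 25.5 TPM in the knockdown. Both groups covered nearly the same range (log2 fold change 0.05, edgeR adjusted p = 0.997). Cyclin A2 binds Cdk1 and Cdk2, and the Ccna2 level per library was 5.30 (range 2.93 to 8.57 over 8 libraries) times that of Cdk1. Part of the Ccna2 count is of uncertain origin, since 510 of its 4083 exonic bases lie opposite Exosc9, an exosome gene at 37.4 TPM. Ccne2 shares 609 of 3495 exonic bases with Ints8 in the same way. Ccne2 ranged from 11.8 to 12.9 TPM in the controls and from 10.9 to 14.4 TPM in the knockdown, and Ccne1 from 5.21 to 6.72 and from 4.33 to 6.03 TPM. E2f1 had 3.36, 2.33, 2.42 and 2.23 TPM in the controls and 2.85, 2.18, 2.34 and 1.85 TPM in the knockdown, with control 1 above the rest. The fold changes of Ccne1 and E2f1 were -0.19 and -0.16 on the log2 scale, with edgeR adjusted p-values of 0.989 and 0.991.

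The 6 Mcm genes encode the ring-shaped helicase that opens DNA at origins, 1 copy of each subunit a ring, yet their transcripts were not equal. Mcm7 (13.1 TPM over the 8 libraries), Mcm4 (11.03) and Mcm6 (10.6) were above Mcm2 (5.34), Mcm5 (3.38) and Mcm3 (3.32). Mcm7 was the highest in all 8 libraries, and the highest subunit exceeded the lowest 3.14 to 4.95 times within a library. Mcm7 was at 12.8, 13.2, 10.99 and 13.6 TPM in the controls and 14.03, 12.97, 14.03 and 13.4 TPM in the knockdown. Controls 1 and 3 lay below the knockdown range, and controls 2 and 4 within it (log2 fold change 0.10, edgeR adjusted p = 0.989). Mcm7 overlaps Ap4m1 and Cops6 on the opposite strand over 321 and 64 exonic bases. The fold changes of the 6 ranged from -0.07 for Mcm3 to 0.10 for Mcm7, with the widest interval for Mcm3 (-0.45 to 0.30). Pcna, the sliding clamp of DNA polymerases, which also serves in repair, had 118, 107, 114 and 120.1 TPM in the controls and 127, 115, 117 and 108 TPM in the knockdown (0.02, -0.14 to 0.17, edgeR adjusted p = 0.997). Its interval was the narrowest among the replication genes.

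E2F factors act on replication genes through a promoter site, a feature by which these genes were not chosen. Promoters from 250 bases before to 50 after the RefSeq start, on GRCm38.p6, were found for 28 of the 36 genes. Where a gene had more than 1 start, a match at any of them counted. Matches to TTTCCCGC, TTTCGCGC, TTTGCCGC or TTTGGCGC on either strand were present in 4 of 6 helicase and fork genes, in 1 of 14 mitosis genes, in 0 of 8 of the rest, and in 2.60% of 27025 genes with a promoter. The 4 Mcm genes with a match are shown in 30-base windows, 5′ to 3′ along the gene, with the match in capitals (GRCm38.p6).
Mcm3, chr1:20820275-20820304, minus strand: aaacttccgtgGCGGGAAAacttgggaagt
Mcm5, chr8:75109349-75109378, plus strand: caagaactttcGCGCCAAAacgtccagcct
Mcm6, chr1:128359734-128359763, minus strand: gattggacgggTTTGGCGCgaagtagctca
Mcm7, chr5:138171849-138171878, minus strand: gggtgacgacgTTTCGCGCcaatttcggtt

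Ribonucleotide reductase makes deoxynucleotides, with Rrm1 as its large subunit and Rrm2 as the small subunit made in S phase, and Tyms makes thymidylate. Rrm1 had 26.3, 20.9, 25.8 and 23.3 TPM in the controls and 25.8, 25.5, 27.8 and 23.6 TPM in the knockdown. Rrm2 had 2.29, 2.01, 1.64 and 1.98 TPM in the controls and 2.03, 2.65, 1.44 and 1.88 TPM in the knockdown, and Rrm1 exceeded it by a factor of 12.9 (range 9.60 to 19.3 over 8 libraries). Tyms spanned 2.50 to 4.04 TPM and 2.63 to 4.25 TPM. All 3 overlapped between the groups, with log2 fold changes of 0.09, 0.02 and 0.10 and edgeR adjusted p-values of 0.989, 0.998 and 0.997.

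Cdk1 with B-type cyclins starts mitosis, and Aurka and Plk1 mature the spindle poles. Cdk1 had 5.95, 4.29, 3.88 and 3.93 TPM in the controls and 7.22, 3.41, 2.89 and 4.17 TPM in the knockdown. Knockdown 1 was the highest of all 8 libraries and knockdown 3 the lowest, and the mean difference was near 0 with a wide interval (-0.01, -0.63 to 0.61, edgeR adjusted p = 0.999). Ccnb1, the cyclin partner of Cdk1, had 1.03, 1.33, 0.977 and 1.98 TPM and 2.25, 0.988, 1.20 and 1.40 TPM in the same order, again highest in knockdown 1. Its log2 fold change was 0.14 (edgeR adjusted p = 0.997). Ccnb2 had 2.16, 1.92, 2.42 and 1.69 TPM and 2.58, 1.86, 1.03 and 2.03 TPM, with knockdown 1 at the top and knockdown 3 at the bottom. Without knockdown 1 the log2 fold changes were -0.38 for Cdk1, -0.18 for Ccnb1 and -0.32 for Ccnb2, with edgeR adjusted p-values of 0.740, 0.924 and 0.835. Aurka lay at 2.80 to 3.79 TPM in the controls and 2.81 to 3.35 TPM in the knockdown, and Plk1 at 3.17 to 4.67 and 4.02 to 4.58 TPM. Summed over the 5 genes of mitotic entry, the controls had 17.6, 14.03, 13.9 and 15.5 TPM and the knockdown libraries 19.99, 13.4, 12.3 and 14.5 TPM.

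Bub1, a kinase of the spindle checkpoint that holds mitosis until chromosomes are attached, showed the largest fold change of the 35. It had 1.11, 0.608, 0.508 and 0.481 TPM in controls 1 to 4 and 1.31, 0.871, 1.43 and 1.24 TPM in knockdown libraries 1 to 4, from 14 to 31 and 23 to 35 estimated counts a library. Controls 2, 3 and 4 lay below every knockdown library, and control 1 lay above knockdown 2. The means were 0.676 ± 0.293 TPM in the controls and 1.21 ± 0.240 TPM in the knockdown (SD, n = 4). The edgeR log2 fold change was 0.83 (SE 0.310, unadjusted p = 0.0180, adjusted p = 0.822). It reached 1 TPM in 3 knockdown libraries and 1 control, so it entered the test mainly through the group in which it was higher. Leaving out each library in turn gave log2 fold changes of 0.72 to 1.17.

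Mki67, the gene of the proliferation marker Ki-67, had 1.60, 1.13, 1.14 and 1.01 TPM in the controls and 1.56, 1.27, 1.77 and 1.71 TPM in the knockdown, from 87 to 132 and 99 to 138 estimated counts. All 4 knockdown libraries lay above controls 2, 3 and 4, and control 1 lay among the knockdown values. The means were 1.22 ± 0.261 TPM in the controls and 1.58 ± 0.221 TPM in the knockdown (SD, n = 4). The edgeR log2 fold change was 0.36 (SE 0.162, unadjusted p = 0.0420, adjusted p = 0.919). Top2a, which untangles replicated chromosomes, had 3.02, 2.08, 1.95 and 2.38 TPM and 2.81, 2.48, 2.96 and 2.22 TPM in the same order, with control 1 the highest of the 8 (log2 fold change 0.14, edgeR adjusted p = 0.989). Endothelial markers, for a cell type that proliferates in this model, summed to 366 to 439 TPM in the controls and 368 to 379 TPM in the knockdown. In controls 1 to 4 that sum was 439, 410, 393 and 366 TPM. In knockdown libraries 1 to 4 it was 368, 379, 368 and 370 TPM. The part of these cells in the levels of Mki67, Top2a and Bub1 was not tested.

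The remaining mitosis genes overlapped between the groups. Bub1b, the partner of Bub1 in the checkpoint, stood well above the others at 11.7 to 16.8 TPM in the controls and 10.5 to 18.7 TPM in the knockdown, and exceeded Bub1 by a factor of 17.8 (range 8.07 to 33.1 over 8 libraries). Its annotated exons overlap no other gene. Bub1b was lowest in knockdown 1 and highest in knockdown 3, the reverse of Cdk1 and Ccnb2. Aurkb, the kinase of the chromosomal passenger complex, had 0.668, 1.40, 1.39 and 1.03 TPM and 1.60, 0.919, 0.946 and 0.476 TPM, so that knockdown 1 and 4 were the highest and the lowest of the 8. Its fold change was -0.18 on the log2 scale, and -0.56 without knockdown 1 and 0.06 without knockdown 4. Only controls 2, 3 and 4 and knockdown 1 reached 1 TPM, so Aurkb entered the test mainly through the group in which it was higher. Birc5, the survivin gene of the same complex, ranged over 2.32 to 3.84 and 2.15 to 3.49 TPM. Cdc20, which activates the anaphase-promoting complex, ranged over 1.16 to 2.88 and 2.01 to 3.07 TPM. The kinesin gene Kif11 ranged over 2.57 to 3.17 and 2.16 to 2.77 TPM, the kinetochore kinesin gene Cenpe over 2.11 to 2.30 and 2.20 to 2.61 TPM, and the spindle assembly gene Tpx2 over 1.55 to 2.76 and 1.55 to 2.71 TPM. Log2 fold changes of these 5 ran from -0.13 for Kif11 to 0.29 for Cdc20, with adjusted p-values in edgeR of 0.989 to 0.998.

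Mitotic promoters carried another element. Matches to the CHR (TTTGAA or TTCGAA, either strand) were present in 11 of 14 mitosis genes with a promoter, in 2 of 6 helicase and fork genes, in 0 of 8 of the rest and in 21.7% of all genes. A CCAAT box, the site of the factor NF-Y, was present in 13 of 14, 6 of 6 and 4 of 8 of these sets and in 41.1% of all genes. Both together occurred in 11 of 14 mitosis genes and 9.65% of all genes. TTCGAA reads the same on both strands, and matches of different motifs may share bases. Such matches are descriptions of sequence, and no binding was measured. The match nearest the start is shown in capitals for 8 of the mitosis genes, as 30-base windows along the gene (GRCm38.p6).
Bub1, chr2:127831828-127831857, minus strand: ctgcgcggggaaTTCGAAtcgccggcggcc
Mki67, chr7:135716460-135716489, minus strand: ccgccgttttggTTTGAAtcgggcgggctg
Cdk1, chr10:69352910-69352939, minus strand: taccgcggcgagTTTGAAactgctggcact
Ccnb2, chr9:70421533-70421562, minus strand: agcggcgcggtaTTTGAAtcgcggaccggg
Cdc20, chr4:118437344-118437373, minus strand: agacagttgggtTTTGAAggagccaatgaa
Plk1, chr7:122159453-122159482, plus strand: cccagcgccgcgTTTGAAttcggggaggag
Aurka, chr2:172370521-172370550, minus strand: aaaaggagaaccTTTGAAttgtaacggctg
Bub1b, chr2:118598231-118598260, plus strand: ctgcgtcaagagacgttaaaTTTGAAactt

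The Cdk1 promoter held all 3 kinds of match, and the 250 bases before its start are shown beside those of Mcm6, which held E2F and CCAAT matches and no CHR. In Cdk1 the E2F match begins at -131, CHR matches at -71 and -15, and CCAAT boxes on the opposite strand at -208, -80 and -48, counted from the start site. In Mcm6, E2F matches begin at -110, -106 and -47 (the first pair overlapping on opposite strands), and CCAAT boxes on the opposite strand at -57 and -14. All matches are in capitals.
Cdk1, chr10:69352913-69353162, minus strand: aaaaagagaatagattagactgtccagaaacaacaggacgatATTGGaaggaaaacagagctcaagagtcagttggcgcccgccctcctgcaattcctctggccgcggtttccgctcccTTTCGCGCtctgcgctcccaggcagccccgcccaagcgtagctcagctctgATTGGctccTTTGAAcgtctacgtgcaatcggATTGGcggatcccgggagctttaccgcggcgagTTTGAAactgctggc
Mcm6, chr1:128359706-128359955, minus strand: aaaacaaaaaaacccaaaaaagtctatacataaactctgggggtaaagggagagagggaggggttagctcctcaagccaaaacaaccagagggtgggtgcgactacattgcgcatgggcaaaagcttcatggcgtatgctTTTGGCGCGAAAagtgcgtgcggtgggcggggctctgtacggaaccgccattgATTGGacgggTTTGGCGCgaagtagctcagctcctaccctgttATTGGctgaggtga

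The 3 inhibitors of the Cip and Kip family block cyclin-dependent kinases. They were far more abundant than Cdk1, the only such kinase among the 36 genes. Cdk4, outside the 36 and given further below, was above Cdkn1c. Cdkn1b, which encodes p27 and keeps differentiated cells out of the cycle, had 195, 198, 202 and 202 TPM in the controls and 202, 210.2, 214 and 204 TPM in the knockdown. On this scale the lowest knockdown library, at 202.5 TPM, was just above the highest control, at 202.02 TPM, and in TMM-scaled counts per 1000000 (CPM) the groups overlapped (137 to 149 and 143 to 150.04 CPM). Its log2 fold change was 0.05 with the narrowest interval of the 35, -0.05 to 0.16 (edgeR adjusted p = 0.989). Cdkn1a, which encodes p21 and is a classic target of p53, had 39.6, 51.3, 40.6 and 41.7 TPM in the controls and 41.3, 35.2, 32.3 and 37.9 TPM in the knockdown.

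Control 2 was the highest library for Cdkn1a, knockdown 2, 3 and 4 lay below every control, and knockdown 1 lay among the controls. The means were 43.3 ± 5.38 TPM in the controls and 36.7 ± 3.87 TPM in the knockdown (SD, n = 4). The edgeR log2 fold change was -0.24 (interval -0.48 to 0.00, unadjusted p = 0.0538, adjusted p = 0.930). The fold change was -0.16 without control 2 and -0.32 without knockdown 1. Cdkn1c, which encodes p57, had 34.3, 35.9, 30.005 and 29.7 TPM in the controls and 35.1, 33.4, 30.5 and 30.97 TPM in the knockdown. The knockdown range lay inside the control range, and the log2 fold change was 0.00 (-0.19 to 0.19, edgeR adjusted p = 0.9997). Fibre cells of the lens also express Cdkn1b and Cdkn1c. Knockdown 3, with the most lens RNA, had 214 TPM of Cdkn1b, the highest of the 8 libraries, and 30.5 TPM of Cdkn1c, within the control range. The part of lens RNA in either level was not tested.

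Libraries differed from each other in several genes at once, and no library was highest for most. By TPM, control 1, knockdown 1 and knockdown 3 each held the highest value for 9 of the 36 genes, knockdown 4 for 4, control 2 for 3, control 4 and knockdown 2 for 1 each, and control 3 for 0. Control 2 and control 3 each held the lowest value for 8. Knockdown 3, the library with the lowest total at 16.03 M estimated counts, also held the lowest value for 5. The part of depth in these counts was not tested. The median deviation of the 35 tested genes from their mean over the 8 libraries was 0.165 on the log2 scale in knockdown 1, 0.0749 in control 1 and -0.0824 to 0.0211 in the other 6. Without knockdown 1 the median fold change of the 35 was 0.00 and 17 were positive. The median coefficient of variation over the 36 genes was 14.4% in the controls and 13.8% in the knockdown.

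**Figure D3:**
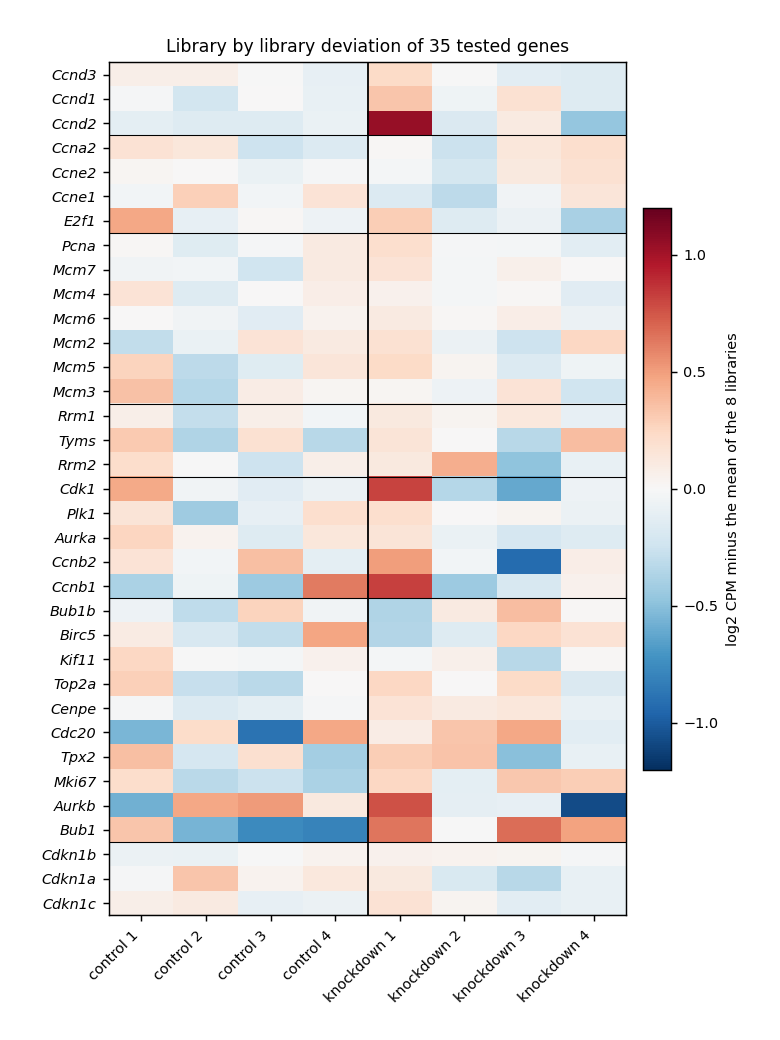
Log2 scaled CPM of each of the 35 tested genes minus its mean over the 8 libraries, with libraries as columns and genes as rows in role order. Red is above the mean and blue below, and knockdown 1 is red for Ccnd2, Cdk1, Ccnb1 and Aurkb, while the rows of Pcna and Cdkn1b are pale throughout.

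Other genes of the same pathways gave the same count of calls. Their lists were chosen by function, with earlier results of these data known. Over all tested genes 5.27% had an unadjusted p under 0.05 in edgeR and 51.8% a positive fold change. Of 44 further replication genes 39 were tested and 0 passed in edgeR (1 at an unadjusted p under 0.05), with 28 positive fold changes and a median of 0.06 on the log2 scale. The origin licensing gene Cdt1 had the smallest p of these, with 2.07, 2.06, 1.38 and 2.25 TPM in the controls and 2.91, 3.13, 2.66 and 2.61 TPM in the knockdown. All 4 knockdown libraries were above all 4 controls (log2 fold change 0.54, edgeR adjusted p = 0.874). In scaled counts 2 of the 39 separated the groups, beside 3.31% of all tested genes. The clamp loader gene Rfc3 had 13.1 ± 0.363 and 15.5 ± 2.12 TPM (SD, n = 4), and the single-strand binding protein gene Rpa1 135 ± 2.48 and 141 ± 2.80 TPM. The dUTPase gene Dut had 69.4 ± 4.35 and 69.9 ± 5.34 TPM.

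Of 55 further mitosis genes 39 were tested and 0 passed in edgeR (2 at an unadjusted p under 0.05), with 25 positive and a median of 0.11. Those 2, Ect2 and Racgap1, act together in cytokinesis. Ect2 had 3.80, 3.11, 3.35 and 2.67 TPM in the controls and 3.15, 4.34, 5.32 and 4.11 TPM in the knockdown (edgeR adjusted p = 0.903). Racgap1 had 10.7, 9.29, 10.2 and 9.12 TPM and 15.8, 12.04, 14.1 and 8.71 TPM (edgeR adjusted p = 0.911), with knockdown 4 below every control. Bub3, a checkpoint gene, had 59.8 ± 1.38 and 64.6 ± 3.07 TPM.

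Of 41 further G1 and checkpoint regulators 35 were tested and 0 passed in edgeR (3 at an unadjusted p under 0.05), with 22 positive and a median of 0.03. The activator E2f3 had 29.3, 31.3, 28.96 and 26.7 TPM in the controls and 33.1, 30.3, 33.4 and 32.7 TPM in the knockdown, with overlap at control 2 and knockdown 2 (log2 fold change 0.15, edgeR adjusted p = 0.813). The repressor E2f6 had 27.4, 27.1, 29.5 and 26.9 TPM in the controls and 63.1, 28.4, 36.9 and 32.2 TPM in the knockdown, with knockdown 1 well above the rest. Its log2 fold change of 0.54 (edgeR adjusted p = 0.823) was 0.20 without that library. Lin52, a subunit of the complex that acts on the CHR, had 182 ± 8.56 and 170.2 ± 8.74 TPM, and the antiproliferative gene Btg2 122 ± 5.88 and 119.6 ± 2.37 TPM.

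Targets of p53 other than Cdkn1a were balanced. Of 28, 25 were tested and 0 passed in edgeR (0 at an unadjusted p under 0.05), with 12 positive, 13 negative and a median of 0.00. Plk2 had 51.3 ± 4.37 and 58.2 ± 7.08 TPM, Aen, a nuclease gene, 26.2 ± 0.479 and 23.5 ± 2.24 TPM, and Ddit4, which also responds to hypoxia, 127 ± 9.01 and 122 ± 3.70 TPM (SD, n = 4).

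**Figure D4:**
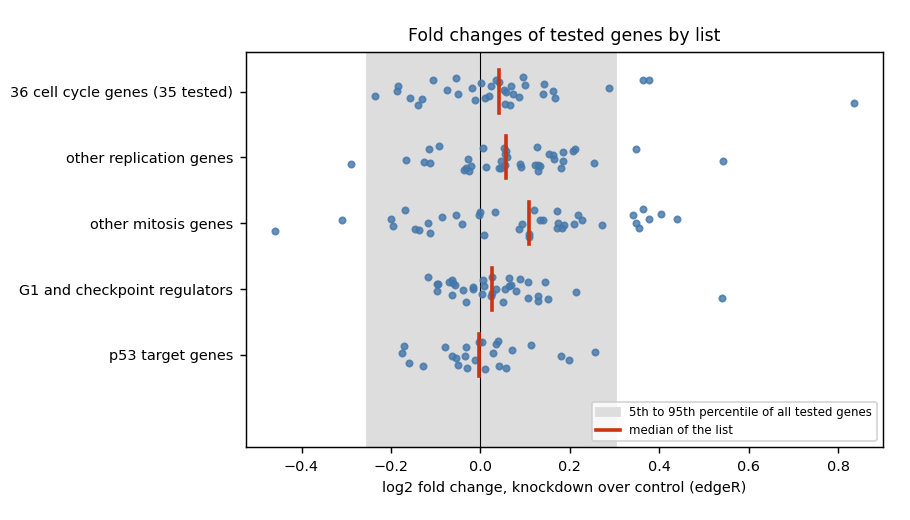
Log2 fold change of every tested gene, knockdown over control, in the 36 cell cycle genes and 4 related lists, 1 point a gene. Red bars are list medians and the grey band holds the 5th to 95th percentile of all tested genes (-0.25 to 0.30), and 3 of the 35 tested cell cycle genes lie outside it.

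Non-neuronal cell types were compared by their markers. Endothelial markers had 16 of 18 negative fold changes (8 at an unadjusted p under 0.05, 0 called in edgeR), among them Cldn5 at 61.2 ± 2.18 and 52.1 ± 3.40 TPM. Kdr, at 109.9 ± 11.4 and 112 ± 4.17 TPM, was 1 of the 2 with a positive fold change. Pericyte markers had 8 of 10 negative (0 called in edgeR, 4 at an unadjusted p under 0.05), with Rgs5 at 204 ± 16.4 and 186 ± 9.63 TPM and Pdgfrb at 14.2 ± 1.13 and 12.5 ± 0.899 TPM. Microglia and macrophage markers had 8 of 15 negative (0 called, 0 at an unadjusted p under 0.05 in edgeR), with C1qa at 27.2 ± 6.20 and 22.2 ± 5.01 TPM. Müller glia markers had 5 of 12 negative (0 called in edgeR, 1 at an unadjusted p under 0.05), with Glul at 2498 ± 73.6 and 2422 ± 164 TPM and Apoe at 1800.1 ± 96.1 and 1819.6 ± 147 TPM. The part of these cell types in the levels of the cell cycle genes was not tested. Retinal pigment epithelium markers had 5 of 9 positive (0 called in edgeR, 3 at an unadjusted p under 0.05), with log2 fold changes of -0.41 to 0.77. Rlbp1, which is also on the Müller glia list, had 508 ± 24.3 and 508 ± 23.2 TPM, and Otx2 had 345 ± 8.01 and 363 ± 6.39 TPM. Astrocyte markers had 4 of 5 positive (0 called and 0 at an unadjusted p under 0.05 in edgeR), with Gja1 at 22.7 ± 3.51 and 27.2 ± 3.82 TPM. Erythroid markers had 6 of 6 positive (0 called in edgeR, 2 at an unadjusted p under 0.05), with Hbb-bs at 183 ± 33.4 and 227 ± 51.9 TPM and Hba-a2 at 108 ± 22.8 and 133 ± 37.8 TPM. Corneal and conjunctival markers summed to 0.672 to 1.76 and 1.24 to 1.86 TPM and lymphocyte markers to 2.73 to 3.96 and 2.35 to 4.41 TPM, with 0 of 8 and 1 of 9 genes reaching the filter, the latter Cd8a at 2.38 ± 0.419 and 2.47 ± 0.441 TPM. Of the lens markers, Cryaa had 0.380 ± 0.365 and 42.5 ± 45.4 TPM and Crygb 0.0944 ± 0.109 and 27.3 ± 31.6 TPM. Of the rod markers, Gnat1 had 7992 ± 212 and 7259 ± 424 TPM (SD, n = 4).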

How the data were processed

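RNA of 8 retinal libraries, 4 a group, was read in pairs of 150 bases, per the labels' protocols. The table's name says TPM, yet its values are not TPM: the authors deposited estimated counts, with library totals of 16.03 to 21.4 M and 90.6% to 91.9% whole numbers. Per the submitters' processing notes, Bowtie 0.12.2 and mm9 appear without a stated role. How reads were counted, whether strand was used, and the annotation are not given in the sources used. The authors' group means were not used, and 0 columns belonged to other samples.

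For the tests, estimated counts were rounded to whole numbers. TPM is the count over the deposited gene length, scaled to 1000000. Genes with at least 1 TPM in at least 4 libraries (16118 of 29694 with a count) were tested with edgeR 4.0.16 in R 4.3.3 (quasi-likelihood, TMM, group as the only term), with Benjamini-Hochberg adjustment over all of them and calls at an adjusted p under 0.05. SE was taken as the size of the log2 fold change divided by the root of F, and intervals use the fit's total degrees of freedom. The code was tested on simulated data. Alternatives were DESeq2 1.42.0, limma 3.58.1 on log2(TPM + 1), other pseudocounts, filters, scalings and left-out libraries. Scaling by library totals was added after seeing the data. The members and lists were chosen with earlier results of these data known. All 36 members are named. Of each related list, called genes are named, or else those with the 2 smallest p-values and the 2 highest levels, and of each marker list the 2 highest. Some genes that this takes are not reported here. Positions and overlaps are from GENCODE M21 on GRCm38, and promoters from RefSeq on GRCm38.p6. Depth limits the low genes: the 36 members had 54 to 11740 counts summed over a group.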

Additional observations from a re-analysis of the deposited data

Results flagged for a closer look

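Each group of 4 libraries was examined for a value far from the other 3, in 154 groups of values (72 of them for the 36 cell cycle genes), of which chance flags about 1 in 20. Among the cell cycle genes the single case was E2f1, where control 1 had 3.36 TPM against 2.23 to 2.42 TPM in the other controls. In knockdown 1, Gfap had 121 TPM against 30.6 to 43.5 TPM in the other knockdown libraries, the complement gene C1qa 29.7 TPM against 19.02 to 20.3 TPM, the β-globin gene Hbb-bs 305 TPM against 199 to 204 TPM and Rpa1 136.3 TPM against 141.7 to 142.2 TPM. In control 4, the pericyte gene Pdgfrb had 12.5 TPM against 14.7 to 14.9 TPM in the other controls.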

How the results depend on the processing

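Under all 21 alternatives 0 of the cell cycle genes were called in either direction, and their median log2 fold change stayed between -0.00 and 0.06. Of the 35, 16 kept the sign of their fold change under every alternative and 19 did not. Positive signs numbered 17 to 25 when each library was left out in turn, and 12 of 16 among genes averaging at least 5 TPM. The number of genes called over the whole table depended more on the setting. It was 16 higher and 29 lower in DESeq2, 64 and 93 in edgeR with no expression filter, 0 and 1 among genes averaging at least 5 TPM, and 0 in both directions with a robust dispersion and in limma with each of 3 pseudocounts (852, 830 and 802 genes at an unadjusted p under 0.05 with pseudocounts of 1, 0.1 and 5; 833 with the robust dispersion). It was 6 higher and 1 lower with Ddx3y, a Y-linked gene, as a covariate, and 7 higher and 39 lower without replicate 3 of both groups. Leaving out 1 library gave 0 to 9 higher and 0 to 52 lower: 0 in both directions without control 1 or control 2 (674 and 821 genes at an unadjusted p under 0.05), 0 higher and 1 lower without control 4, 52 lower without control 3, 6 lower without knockdown 1, and 1 lower without knockdown 4. With no expression filter 1 G1 regulator was called higher, E2f6 (log2 fold change 0.53, edgeR adjusted p = 0.0148), against adjusted p-values of 0.597 or more under the other alternatives. The cause of these shifts was not tested. With the replicate number as a block, 9 genes were higher and 2 lower, and 0 cell cycle genes were called. Same-numbered libraries correlated at -0.155 to 0.0087 in their deviations from the group means, and differently numbered ones at -0.146 to 0.171. No pairing by number was seen, and such weak correlations cannot exclude one. At this depth a change of 2-fold was not excluded for Bub1 and Aurkb.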

Other observations

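The Ndc80 complex ties kinetochores to microtubules with 1 copy each of Ndc80, Nuf2, Spc24 and Spc25, and its transcripts differed widely. Spc25 had 116, 96.2, 111 and 115 TPM in the controls and 103, 108, 109 and 104 TPM in the knockdown. Ndc80 had 0.579 to 1.45 and 0.791 to 2.03 TPM, Nuf2 2.13 to 2.63 and 2.06 to 2.96 TPM, and Spc24 0.688 to 1.97 and 0.758 to 2.08 TPM, so Spc25 stood apart in all 8 libraries. The Spc25 to Ndc80 ratio was 113 (range 50.7 to 191 over 8 libraries). The annotated exons of these 4 genes overlap no other gene. The 3 partners of Spc25 were picked once their values were known. The groups overlapped for all 4 (edgeR adjusted p-values 0.989 to 0.998).

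The kinase partners of the D-type cyclins overlapped between the groups. They and the other single genes of this paragraph were picked in the same way, once their values were known. Cdk4 had 40.2 to 48.7 TPM in the controls and 43.4 to 45.7 TPM in the knockdown, Cdk6 16.96 to 20.9 and 16.3 to 19.3 TPM, and Rb1, the retinoblastoma gene, 41.9 to 51.1 and 43.6 to 57.6 TPM. Tfdp1, the dimerization partner of E2F factors, had 101, 97.3, 101 and 97.8 TPM in the controls and 114, 109, 112 and 106 TPM in the knockdown, without overlap (log2 fold change 0.14, edgeR adjusted p = 0.824). In scaled counts 3.31% of all tested genes separated the groups. The mitotic activators Foxm1 and Mybl2 were low, at 0.822 to 1.21 and 0.963 to 1.50 TPM and at 1.004 to 2.21 and 0.954 to 1.20 TPM. Erythroid markers summed to 374 to 518 TPM in the controls and 479 to 702 TPM in the knockdown, with the highest value in knockdown 1.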
